A study of Rattus norvegicus with 6 samples.

Results

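The enzymes that activate, import and oxidize fatty acids, together with those that make and use ketone bodies, were followed in beta cells that had been sorted by flow cytometry (FACS) from male Wistar rats of 10 weeks. The list held 38 genes, and a gene was taken where a probe set (a group of short probes against 1 transcript) carried its symbol alone. In this way 37 genes were measured, on 54 probe sets, among 14217 named genes on 31042 probe sets. The remaining one, Acaa1a, a peroxisomal thiolase, was met only on a probe set that also names Acaa1b and is not analysed here. Each gene is given by its brightest probe set, and 13 genes had further probe sets that serve as a check. The question was how these transcripts differed between rats fasted for 24 h and rats fed ad libitum. There were 3 isolates from fasted rats and 3 from fed rats. Each isolate came from a pool of 5 rats, with the cells of all isolates 92 ± 3% positive for insulin, and was hybridized on 1 array.

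Long-chain fatty acids enter oxidation in 3 moves. Acyl-CoA synthetases activate them, the carnitine shuttle carries them into mitochondria, and a spiral of dehydrogenase, hydratase, hydroxyacyl dehydrogenase and thiolase reactions shortens them to acetyl-CoA. Peroxisomes shorten very long chains first and pass the products on as carnitine esters. In liver, fasting is known to raise many of these transcripts through the nuclear receptor PPAR alpha, and acetyl-CoA is there turned into ketone bodies that other tissues burn. In beta cells, fatty acids amplify insulin secretion, and the hydroxyacyl dehydrogenase Hadh is known for restraining it.

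Intensities are the linear dChip values deposited by the authors. A change is the log2 ratio of fasted over fed from limma's moderated test, and p is two-sided. A gene was called higher or lower where it differed at least 1.5-fold with an unadjusted p under 0.05. None of the 31042 probe sets passed 0.05 after Benjamini-Hochberg adjustment in limma (smallest adjusted p 0.155), while 4622 had an unadjusted p under 0.05. By a test of linear means with unequal variances the count after adjustment was also 0. With 3 arrays against 3, an exact permutation test cannot give a p below 0.10.

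The arrays of fasted rats had a median intensity of 17.1, 17.8 and 21.0, those of fed rats 21.1, 21.8 and 20.2. The median log2 change of all probe sets was -0.20, and changes below are read against it. Quantile normalization brought this median to -0.02, and scaling each array to its 75th percentile brought it to 0.01. Ins1, Ins2 and Iapp were bright on every array, and the summed intensity of 8 beta cell markers was 23924 to 25447 in fasted and 25232 to 26685 in fed rats. Among them Ero1b, an oxidoreductase of insulin folding, was lower on every fasted array than on any fed array, without reaching 1.5-fold (-0.52, unadjusted p = 0.00129). Iapp was also lower on every fasted array (-0.08, unadjusted p = 0.244). Mafa differed by -0.34 (unadjusted p = 0.0419) with overlapping groups, and none of the 8 was called. Digestive enzymes of acinar cells were bright too, with 10 markers summing to 51173 to 59261 in fasted and 55240 to 59286 in fed rats, and none of the 10 was called. Single acinar markers read 3062 to 7267 in fasted and 3702 to 7136 in fed rats. Their upper ends lay close to the highest probe set on each array (7000.0 to 7367 in fasted, 7125 to 7629 in fed rats). Iapp lay there too, and Gcg was the highest probe set of fed replicate 2 (7629). Probes can saturate with very abundant mRNAs, which was not tested here, so neither the sums nor the lack of a call measure the share of acinar cells. The same limit applies to the beta and alpha cell sums. The sums of 6 alpha cell markers were 7351 to 8561 in fasted and 6274 to 11221 in fed rats, nearly all of it from Gcg and Gc. The 11221 was that of fed replicate 2, beside 7438 and 6274 on the other fed arrays. The PP, delta, stellate and leukocyte sums were also highest on that array, while the beta, acinar, duct, endothelial and adipocyte sums were not. Of the 6, the dim Fev was called lower (-1.60, unadjusted p = 0.0401), with 15.3, 54.7 and 16.8 in fed rats. The 5 duct markers summed to 463 to 552 in fasted and 388 to 440 in fed rats, without overlap. Most of this sum was Krt7, a keratin (365 in fasted and 283 in fed rats on average), and the markers did not move one way. Krt19 was called higher (0.70), while Muc1 was lower on all fasted than on all fed arrays (-0.65, unadjusted p = 0.0947) and Cftr differed by -0.25. The summed markers of delta, PP, endothelial, stellate, leukocyte and adipocyte cells overlapped between the groups. The part of other cells in the results was not tested. In a bulk sample, fewer cells of a type and less RNA per cell cannot be told apart.

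Few of the oxidation genes were called. Acaa2, the mitochondrial thiolase of the last step of the spiral, was higher in fasted rats. Cpt2 and Crat, 2 carnitine acyltransferases, were lower. The other 34 genes were not called. This does not show that they differed little, since many of their intervals reached past 1.5-fold (for Acadsb, -2.02 to 0.59). Among the 14217 named genes, 2.29% were called higher and 9.51% lower, so the share of these genes called higher (2.7%) lay near that background and the share called lower (5.41%) was below it. At an unadjusted p under 0.05 without regard to fold, 5 genes were higher, or 13.5% beside 3.64% of all genes, and 2 were lower, or 5.41% beside 14.9% of all genes. The 5 were Acsl1, Acsl3, Acadvl, Acaa2 and Ech1. All 3 fasted arrays lay above all 3 fed arrays for these same 5 genes (13.5%, beside 5.76% of all genes), and below them for 7 genes (18.9%, beside 21.2%). The median change of the 37 genes was -0.13, with 27 negative and 10 positive. Of the 14217 named genes, 9440 were negative and 4777 positive. After quantile normalization 15 of the 37 genes were negative and 22 positive.

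**Figure D1:**
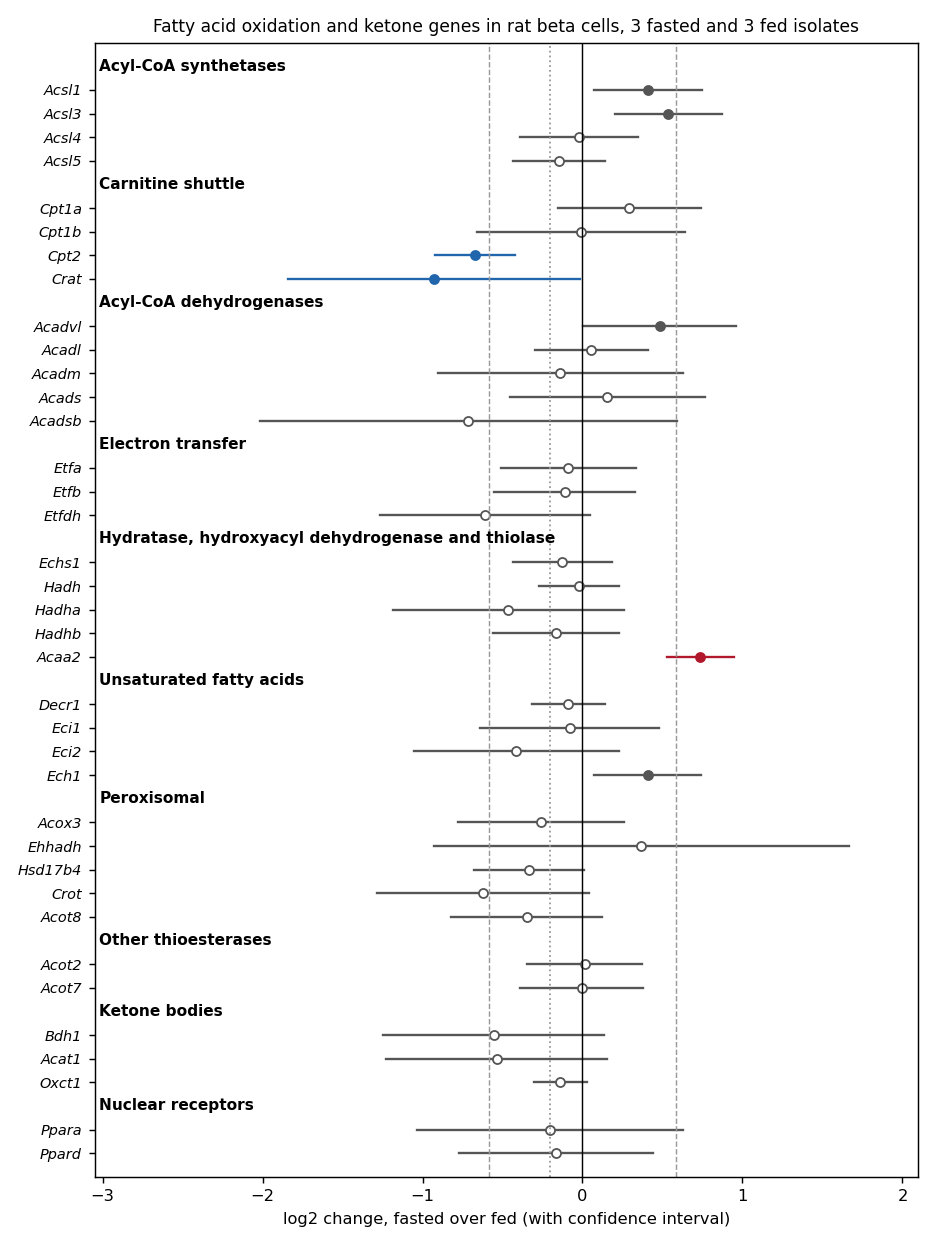
Log2 change (fasted over fed, x axis) of the brightest probe set of each of the 37 genes, grouped by step, with the 95% confidence interval of the limma fit. Red marks the gene called higher (Acaa2, 0.74) and blue the genes called lower (Cpt2, -0.67, and Crat, -0.93). Filled grey points have an unadjusted p under 0.05 below 1.5-fold (dashed lines), and the dotted line is the median of all probe sets, -0.20.

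The acyl-CoA synthetases, which couple fatty acids to coenzyme A, split in pairs. Acsl1, the form that feeds oxidation and lipid synthesis in many tissues, had intensities of 168, 197 and 154 in fasted rats, against 126, 146 and 118 in fed rats. The groups did not overlap, and the difference was 1.33-fold (log2 0.41 ± 0.14 SE, unadjusted p = 0.0246, adjusted p = 0.287). Acsl3, which activates fatty acids at the endoplasmic reticulum and at lipid droplets, had 102, 125 and 105 in fasted rats, against 70.2, 82.1 and 75.7 in fed rats. Again every fasted array was above every fed array, by 1.45-fold (log2 0.54 ± 0.14 SE, unadjusted p = 0.00732, adjusted p = 0.226). Both stayed under 1.5-fold, so neither was called. Acsl4, which prefers arachidonic acid, and Acsl5, a mitochondrial and endoplasmic reticulum form, differed by -0.02 (95% confidence interval -0.39 to 0.34) and -0.15 (-0.43 to 0.14). The difference of Acsl1 was seen on its brightest probe set. Its other probe sets gave -0.07 (unadjusted p = 0.717) and -0.74 (unadjusted p = 0.0892), the last with 3 of 6 arrays at the floor of the scale, 3.27.

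The carnitine shuttle held both genes called lower. Cpt2, on the inner mitochondrial membrane, turns acylcarnitines back into acyl-CoA. Its intensity was 113, 120 and 110 in fasted rats, against 177, 173 and 198 in fed rats. The groups stood well apart, with means of 114 ± 4.74 in fasted and 182 ± 13.7 in fed rats (SD, n = 3 each), and the level was 1.59-fold higher in fed rats (log2 -0.67 ± 0.10 SE, unadjusted p = 0.000528, adjusted p = 0.162). Crat, which exchanges short acyl groups between carnitine and coenzyme A, had 11.3, 18.0 and 20.1 in fasted rats, against 28.7, 22.9 and 42.6 in fed rats. The highest fasted value was just below the lowest fed value, and the change of -0.93 had an interval of -1.84 to -0.01 (unadjusted p = 0.0476, adjusted p = 0.333). The call of Crat was lost when fasted replicate 1 was left out (-0.68, unadjusted p = 0.101), and likewise without fasted replicate 2, fed replicate 1 or fed replicate 3 (unadjusted p = 0.077 to 0.168). After quantile normalization Cpt2 differed by -0.50 (unadjusted p = 0.0048) and Crat by -0.73 (unadjusted p = 0.0826), and neither was called. The same held after 75th percentile scaling, at -0.43 and -0.68.

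Cpt1a, the rate-limiting entry enzyme of the outer membrane and in liver a classical fasting-induced gene, was not called. It had 102, 132 and 148 in fasted rats, against 121, 96.9 and 92.4 in fed rats. Fasted replicate 1 lay among the fed arrays, and the change was 0.29 (interval -0.15 to 0.74, unadjusted p = 0.161). Its second probe set read 80.7, 51.7 and 43.2 in fasted rats, against 33.8, 42.2 and 41.5 in fed rats. There the groups did not overlap, yet fasted replicate 1 was the highest array on it and the lowest fasted array on the first (log2 0.54, unadjusted p = 0.0956). On the first probe set the change was 0.51 (unadjusted p = 0.0102) after quantile normalization and 0.54 (unadjusted p = 0.00557) after 75th percentile scaling, under 1.5-fold in both. Cpt1b, the muscle form, differed by -0.01 (interval -0.66 to 0.64).

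**Figure D2:**
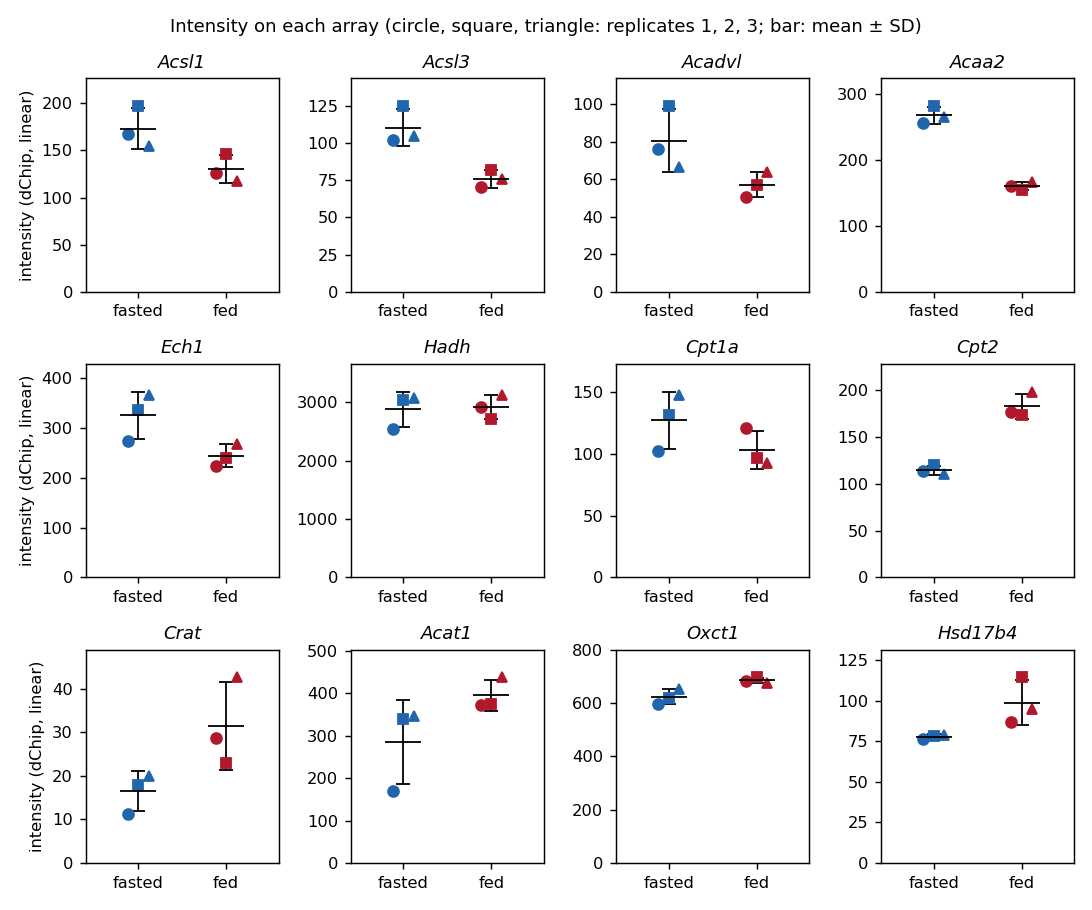
Intensity (y axis, linear dChip units, from 0) of 12 genes on each array of fasted (left, blue) and fed (right, red) rats, with the mean and SD. Acaa2 and Cpt2 separate the groups most widely relative to their spread, in opposite directions, while Hadh and Cpt1a overlap.

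The first oxidation step is carried out by acyl-CoA dehydrogenases that differ in chain length. Acadvl, the very-long-chain form, had 76.3, 99.0 and 66.5 in fasted rats, against 50.6, 57.0 and 63.8 in fed rats. The lowest fasted array was just above the highest fed one, and the change was 0.48 ± 0.20 SE (unadjusted p = 0.0479, adjusted p = 0.333), or 1.40-fold. The long-chain form Acadl had 68.3, 70.6 and 84.6 in fasted rats, against 66.3, 75.3 and 72.9 in fed rats. The medium-chain form Acadm had 62.7, 125 and 132 in fasted rats, against 99.1, 136 and 102 in fed rats. For both the groups overlapped. The interval of the difference ran from -0.30 to 0.41 for Acadl and was wider, from -0.90 to 0.63, for Acadm, in which fasted replicate 1 alone was low. The short-chain form Acads differed by 0.16 (interval -0.46 to 0.77). Acadsb, which acts on short branched chains, ranged from 13.0 to 55.8 in fasted rats and from 38.9 to 53.8 in fed rats, so that its change of -0.71 had an interval of -2.02 to 0.59 (unadjusted p = 0.231).

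Promoters of the genes were searched for the receptor hexamer AGGTCA, since PPAR and its partner receptors bind repeats of it. RefSeq windows (assembly GRCr8, 250 bases before to 50 after the start) were at hand for 31 of the 37 genes, in 32 windows. Acaa2, Cpt1b, Acadl, Decr1, Ech1 and Ppard were not among them. The windows of Acadvl, higher at an unadjusted p under 0.05, on chr10:55236656-55236955 (minus strand), and of Cpt2, called lower, on chr5:127910769-127911068 (minus strand), read as follows, with AGGTCA in capitals.
Acadvl: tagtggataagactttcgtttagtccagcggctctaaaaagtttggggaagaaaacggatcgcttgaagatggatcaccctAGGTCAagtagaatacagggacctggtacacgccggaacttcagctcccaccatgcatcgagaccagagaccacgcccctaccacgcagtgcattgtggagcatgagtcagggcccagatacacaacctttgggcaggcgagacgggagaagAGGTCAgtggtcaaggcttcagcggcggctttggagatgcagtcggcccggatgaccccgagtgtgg
Cpt2: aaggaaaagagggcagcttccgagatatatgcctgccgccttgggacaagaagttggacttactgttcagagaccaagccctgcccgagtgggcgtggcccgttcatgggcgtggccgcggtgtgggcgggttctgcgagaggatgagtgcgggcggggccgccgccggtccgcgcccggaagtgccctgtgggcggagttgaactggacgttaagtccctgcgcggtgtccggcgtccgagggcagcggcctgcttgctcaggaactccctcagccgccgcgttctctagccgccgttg

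The Acadvl window held the hexamer at positions -169 and -17 from the start, both on the coding strand, and the Cpt2 window held none on either strand. Over all windows the hexamer AGGTCA (either strand) was in 7 of 32 for these genes (21.9%), beside 16.2% of 33469 windows of all genes. The 7 belonged to Acadvl, Acot8, Echs1, Hadhb, Eci1, Eci2 and Hsd17b4, among which only Acadvl had an unadjusted p under 0.05. The direct repeat AGGTCANAGGTCA, in which N is any base and which contains the hexamer, was in 0 of 32, beside 0.0538% of all windows. Only exact copies were searched for, so near matches such as AGGTCAgtggtca at -17 of the Acadvl window were not counted. The cyclic AMP response element TGACGTCA was in 2 of 32 (6.25%, beside 1.83%), those of Acadm and Acox3, and the E-box CACGTG in 0 of 32, beside 6.42%. These are matches of letters in short windows, and no binding was measured here.

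Electrons from these dehydrogenases pass through the flavoprotein Etfa and Etfb to Etfdh, which hands them to ubiquinone. Etfdh had 39.6, 62.5 and 81.8 in fasted rats, against 89.5, 87.4 and 91.8 in fed rats. All fasted arrays were below all fed arrays, but they were spread over a wide range, and the change of -0.61 did not pass (interval -1.27 to 0.05, unadjusted p = 0.0645). Etfa differed by -0.09 and Etfb by -0.11, with overlapping groups.

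Within the spiral, Acaa2 had the smallest p among the 37 genes. It read 256, 282 and 266 in fasted rats, against 160, 155 and 167 in fed rats. The gap between the groups was several times the spread within either, with means of 268 ± 13.0 in fasted and 161 ± 5.75 in fed rats (SD, n = 3 each). The ratio was 1.67-fold (log2 0.74 ± 0.09 SE, interval 0.53 to 0.95, unadjusted p = 0.000119, adjusted p = 0.155). It was called under both other scalings (0.88 and 0.98) and without each array in turn (0.70 to 0.77). A dim second probe set, at 2.01 to 9.63 in fasted and 4.89 to 7.53 in fed rats, did not show it (-0.17, unadjusted p = 0.702), and the mean of the 2 probe sets gave 0.28 (unadjusted p = 0.325).

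Hadh, the short-chain 3-hydroxyacyl-CoA dehydrogenase whose loss causes excess insulin secretion in humans, was bright on every array. It had 2540, 3033 and 3077 in fasted rats, against 2921, 2722 and 3120 in fed rats. The groups overlapped, and the interval of the difference was narrow, from -0.27 to 0.23 (unadjusted p = 0.837). Hadha, the hydratase and long-chain dehydrogenase subunit of the trifunctional protein, had 106, 190 and 242 in fasted rats, against 238, 217 and 247 in fed rats (-0.46, interval -1.18 to 0.26). Fasted replicate 1 was far below the other arrays. Hadhb, the thiolase subunit of the same protein, differed by -0.17 (interval -0.56 to 0.23), and Echs1, the short-chain hydratase, by -0.13 (interval -0.44 to 0.19).

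Double bonds need auxiliary enzymes. Ech1, a dienoyl-CoA isomerase found in mitochondria and peroxisomes, had 274, 337 and 366 in fasted rats, against 224, 241 and 269 in fed rats. The groups barely separated, between 269 and 274, and the 1.33-fold difference gave unadjusted p = 0.0239 (log2 0.41 ± 0.14 SE, adjusted p = 0.286). Eci2, an enoyl-CoA isomerase of both organelles, was at 31.0, 34.8 and 56.9 in fasted rats, against 53.2, 49.3 and 55.1 in fed rats (-0.41, unadjusted p = 0.168). The mitochondrial enzymes Eci1 and Decr1 differed by -0.08 and -0.09, with overlapping groups.

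No peroxisomal gene was called, and 4 of 5 had a negative change, beside 9440 of all 14217 named genes. Crot, which makes the carnitine esters that leave the peroxisome, had 32.0, 60.9 and 56.9 in fasted rats, against 73.2, 68.8 and 80.2 in fed rats. The groups did not overlap on this probe set (-0.62, unadjusted p = 0.0619), but its 2 other probe sets gave -0.01 and 0.07. Hsd17b4, the D-bifunctional protein of the middle steps, was tight in fasted rats, at 76.3, 78.4 and 78.9, against 87.1, 114 and 95.0 in fed rats. Every fasted array was below every fed array, with a change of -0.33 (interval -0.68 to 0.01, unadjusted p = 0.054) that was -0.11 after quantile normalization and -0.09 after 75th percentile scaling. Acox3, an acyl-CoA oxidase for branched chains, differed by -0.26 (unadjusted p = 0.271). The peroxisomal thioesterase Acot8 differed by -0.35 (unadjusted p = 0.121). Ehhadh, the L-bifunctional protein and a PPAR alpha target of rodent liver, was dim, with 8.30, 6.27 and 22.0 in fasted rats, against 9.67, 6.29 and 8.74 in fed rats. Only fasted replicate 3 was above the fed arrays, and the change was 0.37 with it and -0.17 without it. The thioesterases outside peroxisomes, mitochondrial Acot2 and cytosolic Acot7, differed by 0.01 and -0.0042. Acot2 had 98.1, 75.7 and 93.3 in fasted rats, against 85.9, 95.6 and 82.2 in fed rats, with overlapping groups, although its 2 other probe sets read -0.54 (unadjusted p = 0.0934) and -0.71 (unadjusted p = 0.08).

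The 3 ketone body genes all had a negative change, beside 9440 of all 14217 named genes, and none was called. Acat1, which condenses acetyl-CoA or splits acetoacetyl-CoA, had 170, 340 and 346 in fasted rats, against 372, 375 and 438 in fed rats. The groups did not overlap, and fasted replicate 1 was far below the others. The change of -0.54 had an interval of -1.23 to 0.16 (unadjusted p = 0.108). Its second, dimmer probe set had 19.4, 16.4 and 32.0 in fasted rats, against 35.5, 42.1 and 37.9 in fed rats. There the difference passed both thresholds as lower (-0.83 ± 0.31 SE, unadjusted p = 0.0369), and it was the 1 of 17 further probe sets of these genes that did. Oxct1, the transferase that commits ketone bodies to oxidation, had 596, 620 and 653 in fasted rats, against 683, 696 and 677 in fed rats. The groups separated by a small step of 1.10-fold (-0.14, interval -0.31 to 0.03, unadjusted p = 0.0918), and the change was -0.0035 after quantile normalization and 0.11 after 75th percentile scaling. Bdh1, which interconverts hydroxybutyrate and acetoacetate, had 22.2, 26.8 and 25.4 in fasted rats, against 46.6, 26.3 and 39.1 in fed rats. Fed replicate 2 lay within the fasted range, and the change was -0.56 (interval -1.25 to 0.13, unadjusted p = 0.0971).

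The receptors were not called. Ppara had 3.91, 4.74 and 8.71 in fasted rats, against 5.74, 6.25 and 6.86 in fed rats, close to the floor of 3.27 throughout. Its interval, -1.03 to 0.63, was correspondingly wide. Ppard, the widely expressed relative, had 38.4, 44.0 and 47.9 in fasted rats, against 41.0, 67.0 and 41.7 in fed rats (-0.17, interval -0.77 to 0.44). The sign of both turned positive under either other scaling, at 0.04 to 0.08.

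The 20 mitochondrial genes had a median change of -0.09, with 2 called lower and 1 higher. Of all named genes 9.51% were called lower and 2.29% higher. The 5 peroxisomal genes had a median of -0.33 and the 3 ketone body genes one of -0.54, with none called. Relative to the median of all probe sets the mitochondrial median was 0.11, the peroxisomal -0.13 and the ketone body median -0.33. The 4 synthetases had a median of 0.19. Fasted replicate 1 was the lowest array for 22 of the 37 genes (59.5%, beside 43.2% of all named genes). Without it the mitochondrial, peroxisomal and ketone body medians were -0.02, -0.16 and -0.20. The median of all probe sets was then -0.12, so that relative to it they were 0.10, -0.04 and -0.08. No test was made between the compartments, which hold few genes.

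**Figure D3:**
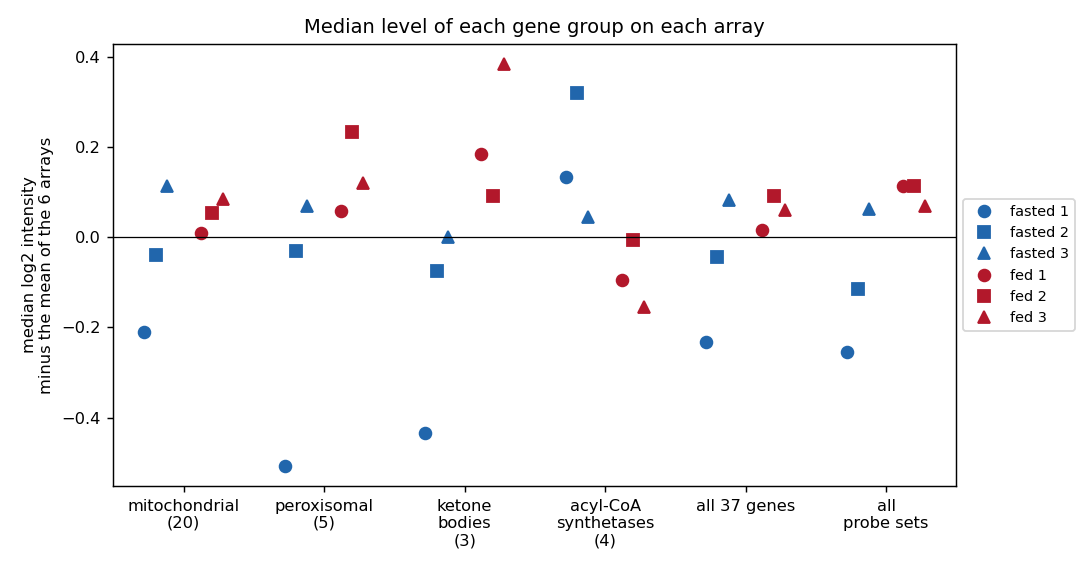
Median over the genes of each group of the log2 intensity on an array minus the gene's mean over the 6 arrays (y axis), for fasted (blue) and fed (red) replicates. Fasted replicate 1 lies lowest for the peroxisomal (-0.51) and ketone body (-0.43) genes. It is also the lowest array for the mitochondrial genes (-0.21), all 37 genes (-0.23) and all probe sets (-0.25). The median of the 4 synthetases stands higher on all 3 fasted arrays, although 2 of the 4 had a negative change.

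Which genes were called depended on how the arrays were scaled. After quantile normalization the median change of the 37 genes was 0.06, with Acaa2, Acsl3 and Acadvl called higher and none lower. After 75th percentile scaling it was 0.12, with Acsl1 and Ech1 called higher besides these 3 and again none lower. The mitochondrial median, -0.09 as deposited, was 0.08 and 0.15 under these 2 scalings, while the peroxisomal (-0.11 and -0.09) and ketone body medians (-0.34 and -0.29) kept a negative sign. Among all probe sets the share of calls that were lower was 78.0% as deposited, 54.3% after quantile normalization and 48.2% after 75th percentile scaling.

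**Figure D4:**
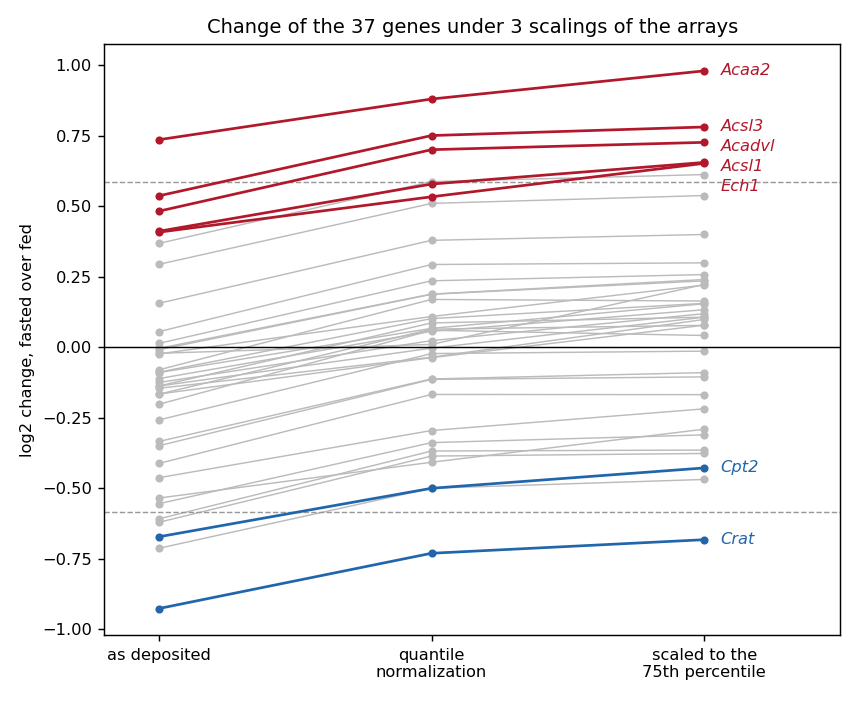
Log2 change (fasted over fed) of the genes as deposited and under quantile or 75th percentile scaling. Red marks genes called higher under at least 1 scaling, blue those called lower, and the dashed lines 1.5-fold. The median is -0.13, 0.06 and 0.12 in the 3 columns, and Acaa2 is the highest gene in each.

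Other genes of the pathway were read from 5 lists of 102 genes, of which 92 had a probe set of their own. Of the 92, 12 were called lower (13%, beside 9.51% of all named genes) and 5 higher (5.43%, beside 2.29%), and the median change was -0.19, as it was over all named genes. Each list holds fewer genes, and its counts below are read beside the same shares of all named genes, 9.51% lower and 2.29% higher. After quantile normalization 5 of the 92 were lower and 8 higher, and after 75th percentile scaling 4 and 8. Angptl4, Esrra (1.02 as deposited, unadjusted p = 0.0593) and Echdc2 (0.69, unadjusted p = 0.0594) were called higher only under these scalings, and under both. Of the 17 called, 3 (Bdh2, Nudt7 and Acot4) were called with each array left out in turn, and the other 14 lost the call without at least 1 array. Of these 3, Bdh2 was not called under either other scaling and Nudt7 not after 75th percentile scaling. Besides the genes called, a few are named below that were chosen after their values were seen (Slc25a20, Aacs, Slc16a1, Slc16a7, Pdk4, Angptl4 and Ppargc1a).

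Among 28 further acyl-CoA enzymes, 5 were called lower and none higher, with a median of -0.36. The list is mainly but not wholly mitochondrial, so this median is not that of a compartment. The 5 included Acad11, another acyl-CoA dehydrogenase, at 13.2, 45.8 and 79.5 in fasted rats, against 127, 108 and 128 in fed rats (-1.73 ± 0.63 SE, unadjusted p = 0.0322). Every fasted array was below every fed one, with fasted replicate 1 by far the lowest. Mmut, the mutase that leads propionate-derived carbon into the citric acid cycle, had 108, 145 and 157 in fasted rats, against 233, 214 and 224 in fed rats (-0.73 ± 0.16 SE, unadjusted p = 0.0032, adjusted p = 0.196). Pcca, the carboxylase subunit upstream of it, was also called lower (-0.61, unadjusted p = 0.0285), as were Acad8 of valine breakdown (-0.72, unadjusted p = 0.0479) and Echdc3 (-0.84, unadjusted p = 0.0181). Of these, Mmut, Pcca and Acad8 were under 1.5-fold without fasted replicate 1, and these 3 lost their call under both other scalings. Slc25a20, the carnitine carrier between Cpt1a and Cpt2, was not called (0.13, interval -0.19 to 0.44).

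Of 15 further peroxisomal genes, 2 were called lower and 2 higher. Nudt7, a hydrolase of peroxisomal coenzyme A, had 87.7, 126 and 144 in fasted rats, against 222, 192 and 197 in fed rats (-0.80 ± 0.20 SE, unadjusted p = 0.00609). Its groups stood apart, and the change was -0.56, under 1.5-fold, after 75th percentile scaling. Amacr, the racemase of branched-chain acyl-CoA, was lower by a margin that just passed (-0.59, unadjusted p = 0.0493) and was not called under either other scaling (-0.35 in both). Those called higher were dim. Abcd2, an importer of very long chains, had 12.3, 6.98 and 7.05 in fasted rats, against 4.71, 4.58 and 1.00 in fed rats (1.03, unadjusted p = 0.0167). Acot4, a thioesterase, had 4.21, 9.02 and 7.08 in fasted rats, against 1.00, 2.03 and 2.57 in fed rats (0.98, unadjusted p = 0.0157). For Acot4 all 3 fed arrays were at the floor, and with a floor at the 25th percentile (7.53) neither gene was called.

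Uptake, binding and activation were covered by 17 genes, with 2 called in each direction. Fabp3, the fatty acid binding protein of heart, had 64.9, 23.5 and 36.6 in fasted rats, against 14.5, 14.1 and 20.2 in fed rats. The groups did not overlap, and fasted replicate 1 was the highest (1.25 ± 0.43 SE, unadjusted p = 0.0253). Without that replicate the change was 0.87 (unadjusted p = 0.0532), and p was 0.0561 to 0.0765 without fasted replicate 3, fed replicate 1 or fed replicate 2. Acsl6, a synthetase best known from brain, had 15.2, 20.3 and 37.6 in fasted rats, against 53.5, 49.0 and 57.0 in fed rats (-1.23 ± 0.36 SE, unadjusted p = 0.0135), opposite in direction to Acsl1 and Acsl3. Dbi, the acyl-CoA binding protein, was called lower (-0.64, unadjusted p = 0.0362), but not after quantile normalization (-0.41, unadjusted p = 0.0512) or 75th percentile scaling (-0.40, unadjusted p = 0.0519). Acsbg1, another synthetase, was dim and called higher (0.99, unadjusted p = 0.019), and with the higher floor it was not (0.15, unadjusted p = 0.17).

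In the ketone body list, 1 of 6 genes was called. Bdh2, a cytosolic dehydrogenase, was lower but dim, with 4.28, 4.06 and 3.07 in fasted rats, against 5.23, 7.65 and 7.12 in fed rats (-0.78, unadjusted p = 0.0144). The call was lost after quantile normalization (-0.47, unadjusted p = 0.134) and 75th percentile scaling (-0.51, unadjusted p = 0.108), and also with the higher floor, a pseudocount or robust variance (unadjusted p = 0.428, 0.132 and 0.0609). Aacs, which uses acetoacetate for lipid synthesis, had 94.6, 91.3 and 110 in fasted rats, against 114, 122 and 142 in fed rats. Its groups did not overlap, and the change of -0.35 (unadjusted p = 0.041) was under 1.5-fold. The transporters Slc16a1 and Slc16a7, which carry ketone bodies and lactate, were dim and not called.

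Of 26 regulators and PPAR target genes, 2 were called lower and 1 higher, with a median of 0.12. Pdk4, which is induced by fasting in muscle and liver and spares glucose by blocking pyruvate dehydrogenase, had 131, 301 and 297 in fasted rats, against 153, 237 and 161 in fed rats. Fasted replicates 2 and 3 were above all fed arrays and fasted replicate 1 below them, and the change was 0.34 (interval -0.55 to 1.22, unadjusted p = 0.391). Angptl4, another target, differed by 0.41 (unadjusted p = 0.201) with overlapping groups. It was called higher after quantile normalization (0.61, unadjusted p = 0.0495) and 75th percentile scaling (0.65, unadjusted p = 0.03). The coactivator Ppargc1a had 27.5, 151 and 117 in fasted rats, against 149, 143 and 153 in fed rats (-0.92, unadjusted p = 0.189), with fasted replicate 1 again alone at the low end. The genes called were Rxrb and Nr1h3, both nuclear receptors and both lower, and Cidec, a lipid droplet protein. Rxrb had 7.41, 12.1 and 8.05 in fasted rats, against 19.1, 16.4 and 23.9 in fed rats (-1.12, unadjusted p = 0.0186). Nr1h3 was dimmer, with 5.17, 2.77 and 3.17 in fasted rats, against 5.71, 8.09 and 7.58 in fed rats (-0.89, unadjusted p = 0.0164). Fasted replicates 2 and 3 were at the floor, and the call was lost under both other scalings (unadjusted p = 0.0874 and 0.0929). Cidec had 38.5, 22.3 and 22.5 in fasted rats, against 13.4, 16.1 and 12.7 in fed rats (0.94, unadjusted p = 0.0309). With a replicate block none of these 3 was called (unadjusted p = 0.0505 to 0.0707). Cidec also stood in the adipocyte marker list, whose 5 genes summed to 58.1 to 71.6 in fasted and 54.1 to 67.3 in fed rats. In that list Adipoq, Plin1 and Cfd had negative changes (-0.45, -0.46 and -0.84) with overlapping groups. Lep, like Cidec, was higher on all fasted than on all fed arrays, with 21.2, 5.17 and 4.86 in fasted rats, against 1.34, 1.20 and 1.00, all at the floor, in fed rats (1.31, unadjusted p = 0.0634). The part of adipocytes was not tested.

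**Figure D5:**
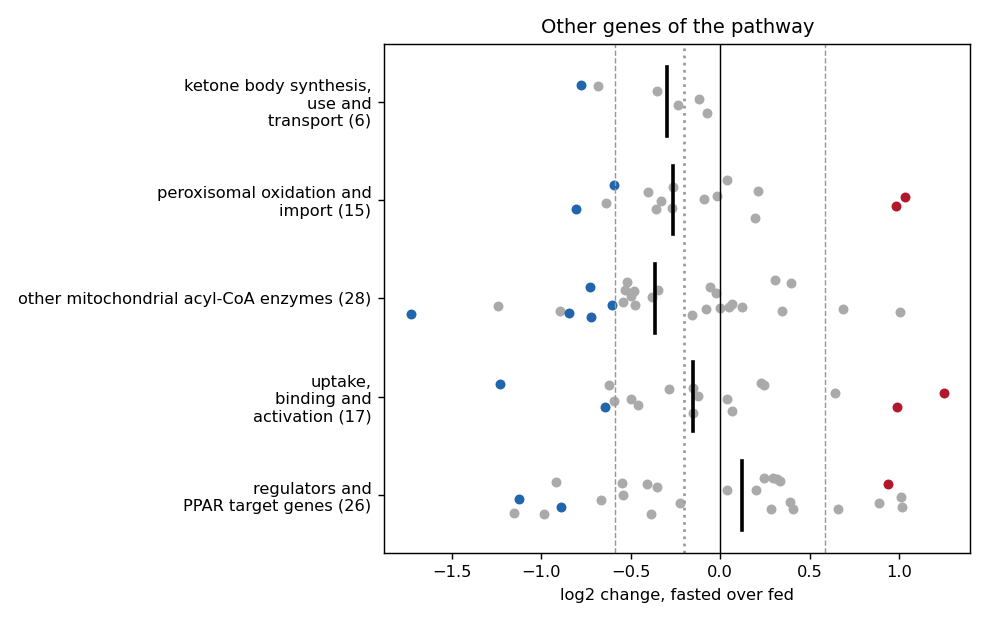
Log2 change (fasted over fed, x axis) of the 92 further genes in the 5 pathway lists, 1 point per gene. Red points were called higher (5) and blue points lower (12). The black bars are the medians of the lists, the dashed lines 1.5-fold, and the dotted line is the median of all probe sets, -0.20.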

How the data were processed

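Per the labels and the study's methods, total RNA of the 6 isolates was extracted in batch, with an RNA integrity number of at least 8, from cells frozen within 3 h. The authors deposited linear intensities from dChip's model-based analysis, normalized to the array of median intensity with mismatch probes as background. For dChip, no version is given in the sources used here. While the paper names the array RG230A, the table holds 31042 probe sets and 57 controls. Without scan dates, no batch of scans could be tested. Controls were left out, a floor was set at the 10th percentile (3.27), and limma (version 3.58.1, under R 4.3.3) was run on the log2 scale (lmFit, eBayes with trend, 2 groups, no block), with Benjamini-Hochberg adjustment over all probe sets. The floor understates changes of dim genes. The thresholds (1.5-fold, unadjusted p of 0.05) follow the methods. Of the probe sets, 20826 carried 1 symbol, 436 several and 9780 none. Of the first, 20758 matched the rat gene table of GRCr8, and 0 symbols changed. Intensities of different probe sets are not compared, means and SDs are of linear values, and the number of arrays limits the precision.

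The genes and lists were chosen with earlier results of these data known, so no list was tested and no p was adjusted over a list. Of the 37 genes, values are given on every array for those called, for the one of largest moderated t in each step and for 13 preset genes, and the others mostly by their change. Of the pathway lists the genes called are named, some with their values on every array. The alternatives were linear means with unequal variances, a filter on dim probe sets, a higher floor (25th percentile, 7.53), a pseudocount, quantile normalization, 75th percentile scaling, no intensity trend, robust variance, array weights, a replicate block, each array left out, the mean of a gene's probe sets, and Eci2 and Ech1 counted in either organelle. The fit was tested on simulated data. Promoters came from RefSeq, and Python 3.11.15 with matplotlib 3.10.9 made the figures.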

Additional observations from a re-analysis of the deposited data

How the results depend on the processing

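The 2 genes called lower became 0 after quantile normalization and 0 after 75th percentile scaling, and the 1 called higher became 3 and 5. The median change of the 37 genes was then 0.060 and 0.12 and that of the mitochondrial genes 0.076 and 0.15, while the ketone body median was -0.29 after 75th percentile scaling. The number called lower was 1 with linear means, with a floor at the 25th percentile and with a replicate block, each time by the loss of Crat (unadjusted p = 0.109, 0.0554 and 0.063). It was 3 for probe sets brighter than the median and with robust variance, with Etfdh added, 3 with a pseudocount, with Crot added, and 3 with the mean of all probe sets, with Acat1 added. With that mean 0 genes were called higher, and with array weights 3 were. In the filter on bright probe sets 1 gene, Acaa2, passed the adjusted threshold (adjusted p = 0.0413, against 0.0551 to 0.563 in its other settings). There the limma fit and the adjustment were both made on the bright probe sets alone. The adjusted p of 0.05 was passed by 0 probe sets in the fit as reported and by 124 with this filter, 83 with the pseudocount, 88 with robust variance and 1 with the higher floor. Leaving out each array gave 1 to 5 genes lower and 1 to 2 higher, a ketone body median of -0.61 to -0.20, a mitochondrial one of -0.16 to -0.02, a peroxisomal one of -0.41 to -0.16 and a median of all 37 of -0.17 to -0.06. The 5 lower were found without fasted replicate 3 (Etfdh, Hadha and Eci2 added). Crot was lower without fasted replicate 2 and Bdh1 without fed replicate 2, and Acsl3 was higher without either fasted replicate 1 or fed replicate 2 and Acadvl without fasted replicate 3. The cause of these shifts was not tested.

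Some genes changed sign. Under quantile normalization, 75th percentile scaling and array weights, Acadm was 0.086, 0.11 and 0.13 and Hadh 0.0097, 0.22 and 0.021. Under the 2 scalings Ppara was 0.060 and 0.041, and Ppard 0.064 and 0.077, while Oxct1 was 0.11 after 75th percentile scaling and Ppara 0.070 with the higher floor. With array weights Ehhadh was -0.032 and Acot2 -0.097, and with the mean of all probe sets Acsl1 was -0.13 and Acot2 -0.41. Leaving out each array gave -0.040 to 0.11 for Acadl, -0.33 to 0.21 for Acadm, -0.072 to 0.067 for Hadh, -0.17 to 0.74 for Ehhadh, -0.061 to 0.13 for Acot2, -0.54 to 0.036 for Ppara and -0.29 to 0.066 for Ppard.

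The same replicate numbers did not pair the arrays (correlations of deviations 0.0001, 0.0107 and -0.0531), and the replicate block gave 1 of the 37 genes lower and 1 higher and ended the call of 7 of the 17 pathway genes.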
